A study of Rattus norvegicus with 10 samples.

Results

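Collagen genes were followed through 5 chemically induced rat mammary tumors, each sampled before and after chemotherapy with adriamycin (doxorubicin). The members are all genes whose symbol in the array's annotation reads Col, a number, the letter a and a number, counted only from probe sets assigned to a single gene, with 1 value per gene from its brightest probe set over the 10 arrays. The rule uses names and brightness and no comparison. It found 41 collagen genes among 14217 genes with such a probe set. After the 25% of probe sets with the lowest mean level had been set aside, 36 of the 41 were tested, among 12255 genes in all. The 5 left out were Col10a1, Col19a1, Col20a1, Col24a1 and Col25a1, whose levels lay between 2.94 and 5.03 over all arrays.

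Collagens are the main structural proteins of connective tissue, built from chains that wind around each other into stiff rods. Fibrillar collagens form the fibers of the stroma, basement membrane collagens form the sheet beneath epithelium and around vessels, beaded filament collagens of type VI link cells to the fibers, and FACIT collagens sit on fiber surfaces. In mammary tumors the fibrillar chains are made chiefly by fibroblasts of the stroma, while basement membrane chains are also made by epithelial, myoepithelial and endothelial cells.

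All animals were female Sprague-Dawley rats given DMBA (7,12-dimethylbenz(a)anthracene), a carcinogen, by mouth in 1 dose of 100 mg/kg. The basal group (n = 5) holds core-needle biopsies of untreated tumors of 2 cm3 at 12 weeks of age. The final group (n = 5) holds the same 5 tumors (09I1, 11D2, 12I1, 29I1, 43D1) at 19 weeks of age, after 6 weekly intravenous doses of adriamycin at 1 mg/kg. All 5 were chosen as Bloom-Richardson grade II. No untreated tumor at the later time was among the samples, so the drug, the age of the tumor and the kind of sample (a needle core at the start; whole tumor in one description of the final sample and needle core in another) cannot be told apart. Whether each tumor came from its own rat is not given in the sources used here. The p-values treat the 5 tumors as independent, which could not be checked. They rest on how much the change within a tumor differs between tumors, moderated with the spread of all probe sets.

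Levels are log2 values from RMA (robust multichip average), in which 1 unit is a 2-fold difference. Because each probe set binds with its own strength, levels of different genes are not compared as amounts. The summed level of a marker list is the log2 of the sum of its genes' unlogged values. The brightest probe sets weigh most in such a sum, whatever the amounts of RNA. Array medians lay between 5.93 and 6.12. On 1 array, the final one of 09I1, quality measures were unlike the rest: its median correlation with the other arrays was 0.938, against 0.975 to 0.984 elsewhere, and its beta-actin 3′ probe set exceeded the 5′ one by 2.61, against 0.72 to 0.96 elsewhere, a difference that is used to gauge RNA length. Over all probe sets, changes in 09I1 had an SD of 0.80, against 0.43 to 0.52 for the remaining tumors. Epithelial markers (12 of 12 measured) had a summed level of 15.21 to 15.55 in the basal samples and 14.96 to 15.56 in the final ones, so the labelled tissue had its defining cell type on every array. In bulk tissue, fewer cells of a type and less RNA per cell cannot be told apart.

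RefSeq promoter sequence was held for 32 of the 41 members, without Col1a1, Col2a1 and Col3a1. Col4a1 and Col4a2, which make the 2 chains of the main basement membrane network, start back to back; the whole stretch between their starts, 76 bases, is shown because the change of each in each tumor is set beside the other below. The upstream end of Col6a1 is shown because the type VI chains had some of the widest differences between tumors. In both, read 5′ to 3′ on the strand of the gene named before the colon (Col4a1 for the shared stretch), capitals mark the only match to the motifs searched.
Col4a1 and Col4a2: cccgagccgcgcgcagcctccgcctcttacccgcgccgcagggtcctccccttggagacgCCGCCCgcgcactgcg
Col6a1: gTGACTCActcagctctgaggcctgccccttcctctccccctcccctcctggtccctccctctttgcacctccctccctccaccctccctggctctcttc
The shared stretch lies at chr16:84885521-84885596 (GRCr8, plus strand) and is 78.9% G and C. The Col6a1 window is the 100 bases before its start at chr20:11905590-11905689 (GRCr8, plus strand) and is 66.0% G and C. Both strands were searched for GGGCGG, a GC box. The same was done for CCAAT, for the TATA-like motif TATAAA and for TGACTCA, the AP-1 site. Each window held 1 match in all, so no matches overlap. The shared stretch held GGGCGG once, on the opposite strand, as did 18.1% of 33469 rat promoters over a window of 76 bases. The Col6a1 window held TGACTCA once, as did 1.58% of promoters over 100 bases. CCAAT was in 13% and TATAAA in 4.61% of the promoters over 76 bases, and in neither printed sequence. A match is a description of the letters and does not show that a factor bound.

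Across the 5 tumors, no collagen gene differed between final and basal samples after adjustment, and within single tumors the 2 samples differed by up to several-fold, in opposite directions. With limma's moderated test on the paired values and Benjamini-Hochberg adjustment over all probe sets, 0 of 36 collagen genes passed 0.05, as did 0% of all 12255 genes. At an unadjusted p under 0.05 limma put 2 collagen genes, Col2a1 (lower) and Col6a5 (higher), beside 2.88% of all genes (1.10% lower and 1.78% higher). Mean changes were positive for 12 collagen genes and negative for 24, beside 6462 positive and 5793 negative among all 12255 genes. The collagen median was -0.17 log2 units, beside 0.014 over all genes. Only Col2a1 among the 36 had the same sign in 5 of 5 tumors, which was so for 5.83% of all genes (3.33% higher and 2.51% lower). No tested collagen had basal and final values that did not overlap, against 0.840% of all genes. The SD of the change over tumors had a median of 0.81 for the collagens and 0.41 for all genes tested.

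**Figure D1:**
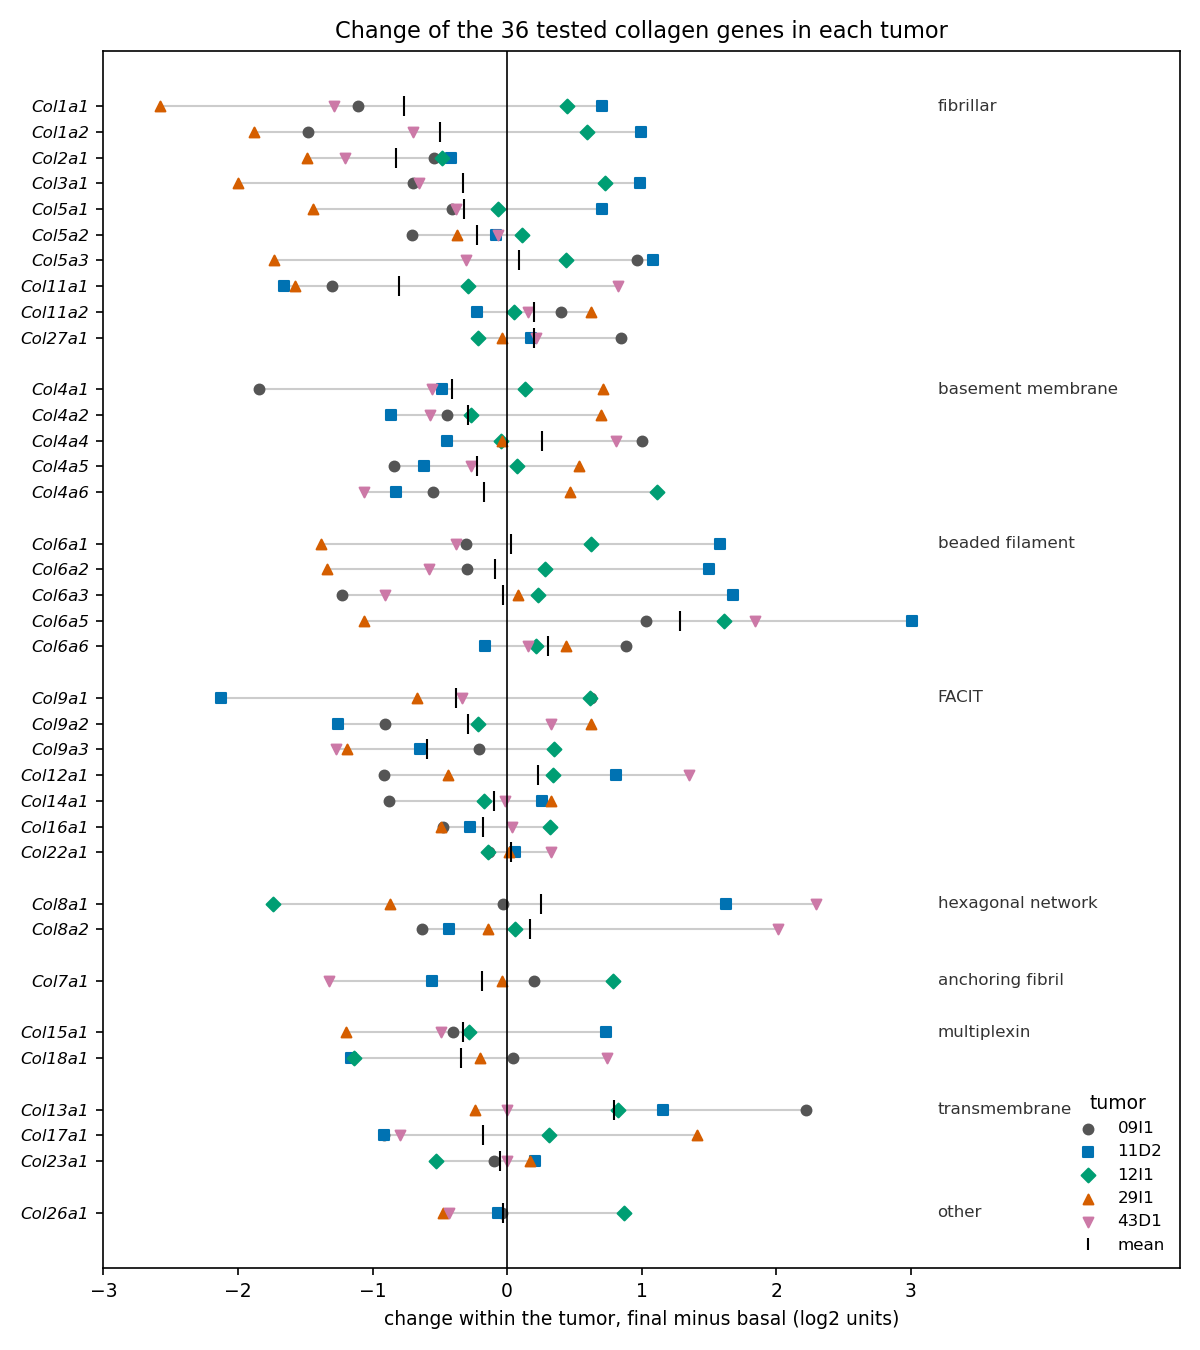
Change within each tumor, final minus basal in log2 units (x axis), for the 36 tested collagen genes (rows, grouped by class); each symbol is 1 tumor and the vertical tick is the mean of 5. Symbols lie on both sides of 0 for every gene except Col2a1, whose 5 tumors all lie below 0, and the widest spreads reach 3.01 (Col6a5, tumor 11D2) and -2.58 (Col1a1, tumor 29I1).

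Among the fibrillar collagens, 10 of 11 measured genes were tested. Col1a1 and Col1a2, the chains of type I collagen and the bulk of stromal fiber, were higher in the final sample of tumors 11D2 and 12I1 and lower in 09I1, 29I1 and 43D1. In the tumor order 09I1, 11D2, 12I1, 29I1 and 43D1, which is kept throughout, Col1a1 stood at 11.73, 10.89, 11.52, 11.68 and 10.98 in the basal samples and at 10.62, 11.60, 11.96, 9.10 and 9.69 in the final ones. The basal samples lay within 1 unit of each other and the final samples were both above and below them. The means were 11.36 ± 0.40 and 10.59 ± 1.22 (SD, n = 5), a mean change of -0.77 (SE 0.46, limma adjusted p = 0.977). For Col1a2 the basal levels were 12.20, 11.39, 12.15, 12.62 and 11.68 and the final levels 10.72, 12.38, 12.74, 10.74 and 10.97, a mean change of -0.50 (SE 0.43, limma adjusted p = 0.977). The 2 chains moved the same way in 5 of 5 tumors, with changes that differed by at most 0.70.

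Col3a1, the chain of type III collagen found beside type I in soft tissue, had basal levels of 12.59, 11.97, 12.16, 12.97 and 12.18 and final levels of 11.90, 12.96, 12.89, 10.97 and 11.53. It had the sign of Col1a1 in 5 of 5 tumors, and its mean change was -0.33 (SE 0.42, limma adjusted p = 0.977). Col5a1, a chain of type V collagen that sets fiber width, had a change of -1.44 in 29I1 and 0.71 in 11D2, with a mean of -0.32. Col5a3 ranged from -1.73 in 29I1 to 1.08 in 11D2, with a mean of 0.089. Over the 10 fibrillar genes the median change was -0.32; it was -0.24 without tumor 09I1, -0.58 without 11D2, -0.49 without 12I1, -0.094 without 29I1 and 0.023 with array weights. By tumor, that median was -0.62, 0.44, 0.083, -1.53 and -0.34; in 29I1, 9 of 10 fibrillar genes were lower in the final sample. Markers of fibroblasts other than collagens had median changes of 0.25, 0.99, 0.72, -0.91 and 0.23. These medians had the sign of the fibrillar median in 11D2, 12I1 and 29I1 and the other sign in 09I1 and 43D1. Of the markers, 14 of 15 were higher in 11D2 and in 12I1, and 15 of 15 were lower in 29I1. In 09I1 and in 43D1 they were split, with 9 higher and 6 lower in each. The summed fibroblast level ran from 13.3 to 14.4 in the basal and from 13.3 to 14.6 in the final samples. It went from 13.60 to 13.26 in 09I1 and from 13.68 to 14.05 in 43D1. In 29I1, markers of endothelium (10 of 10 tested) and of macrophages (10 of 11 tested) were lower too, as were those of fat (8 of 10 tested, with a median change of -0.80), and those of epithelium (10 of 12 tested) were higher. The summed endothelial level was 10.50 to 11.21 in the basal and 10.55 to 10.91 in the final samples, and the summed macrophage level 11.91 to 13.97 and 12.51 to 13.56. The part of these cell types in the result was not tested.

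**Figure D2:**
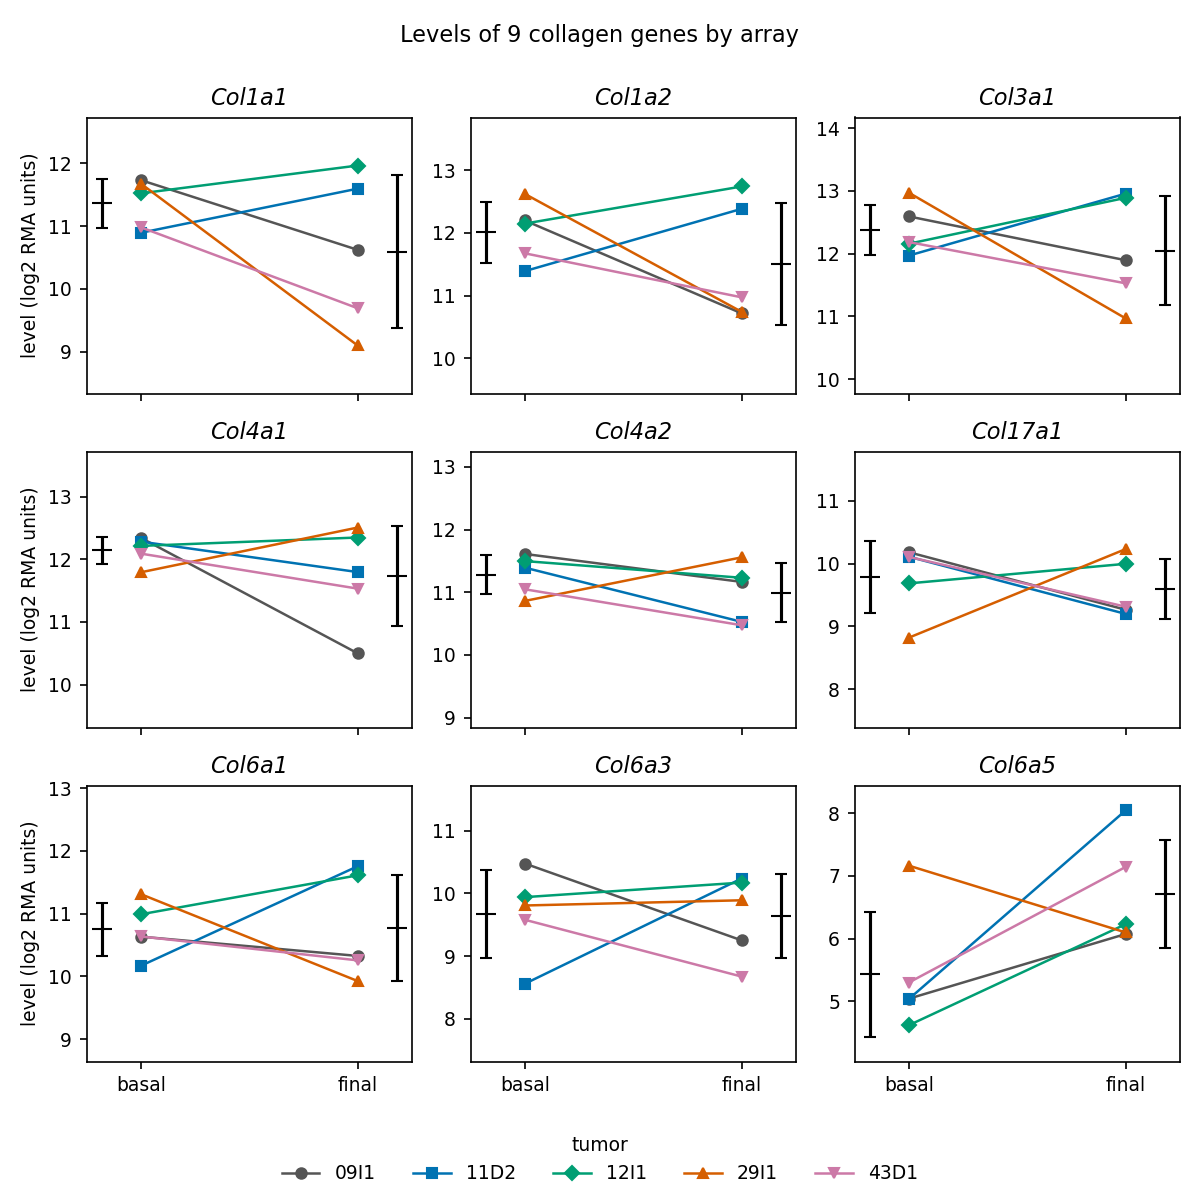
Level in log2 RMA units (y axis) of 9 collagen genes in the basal and final sample of each tumor (lines), with the mean and SD of 5 samples as black marks beside them; every panel spans the same number of units. In the top row the lines of 29I1 (11.68 to 9.10 for Col1a1) and 11D2 (10.89 to 11.60) cross, and in the middle row 29I1 slopes up and 09I1 slopes down (Col4a1, 11.79 to 12.51 and 12.34 to 10.50).

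Col2a1, the chain of type II collagen and a major cartilage collagen, had the smallest p of the members. Its levels were 10.79, 10.85, 11.16, 9.19 and 9.82 in the basal samples and 10.25, 10.43, 10.68, 7.70 and 8.61 in the final ones. Each final sample was below its own basal sample, and the groups overlapped because 29I1 and 43D1 were low at both times. The mean change was -0.83 (SE 0.20, limma adjusted p = 0.850). The other 2 probe sets of Col2a1, dimmer over the 10 arrays, had mean changes of 0.23 and -0.15, with 4 and 1 of 5 tumors higher, so the decrease in all tumors was seen with the brightest probe set alone; with the 3 averaged the mean change was -0.25 and the unadjusted p was above 0.05. All 3 had their lowest basal levels in 29I1 and 43D1. Of 7 measured cartilage-cell markers that are not collagens, Comp and Cnmd lay below the array's lower quartile on 10 of 10 arrays, and the group means of Acan, Matn1, Hapln1 and Chad lay between 3.82 and 4.70. Snorc, a small cartilage proteoglycan, was bright, at 7.83 to 11.2 in the basal and 8.11 to 11.9 in the final samples, and made up nearly all of the summed level of the list (8.36 to 11.2 and 8.66 to 11.9). Snorc was higher in the final sample of 4 of 5 tumors, where Col2a1 was lower, and the part of cartilage cells in the result was not tested.

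**Figure D3:**
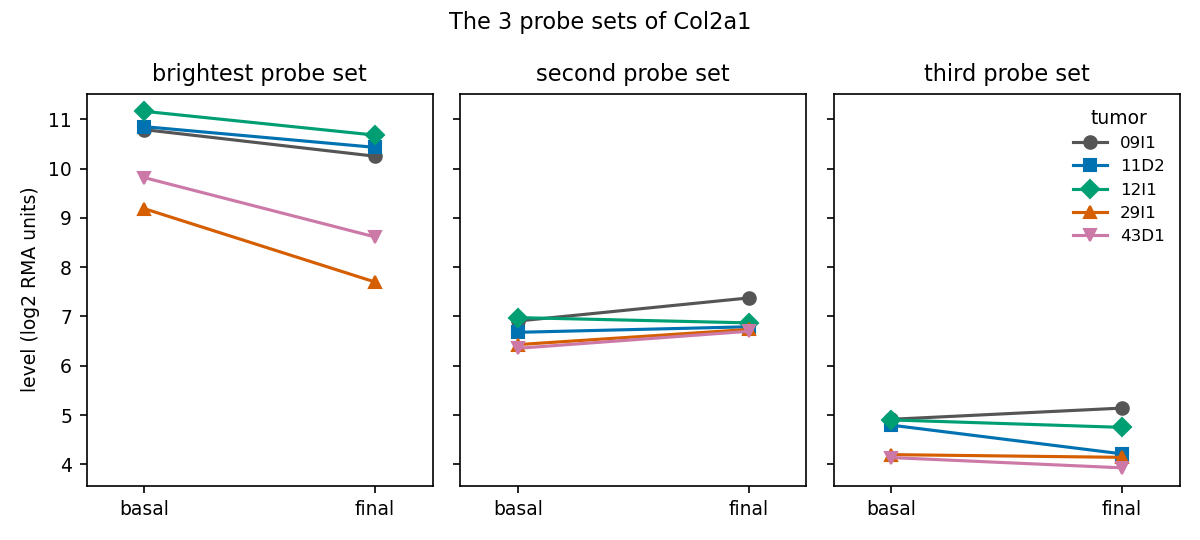
Level in log2 RMA units (y axis) of the 3 probe sets of Col2a1, in order of brightness from left to right, in the basal and final sample of each tumor (lines). All lines of the brightest probe set go down, from 11.16 to 10.68 in 12I1 for example, while those of the middle one go up in 4 of 5 tumors.

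Col11a1, a chain of type XI collagen that is known from cartilage and from activated stroma around carcinomas, had basal levels of 6.31, 8.66, 8.72, 9.15 and 5.89 and final levels of 5.01, 7.00, 8.42, 7.57 and 6.71. It was lower in 4 of 5 tumors, higher by 0.83 in 43D1, and had a mean change of -0.80 (SE 0.38, limma adjusted p = 0.977). Col2a1 and Col11a1 shared their sign in 4 of 5 tumors.

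The basement membrane chains followed another order of tumors. Col4a1 stood at 12.34, 12.28, 12.21, 11.79 and 12.09 in the basal samples and at 10.50, 11.80, 12.35, 12.51 and 11.53 in the final ones. Tumor 29I1 had the lowest basal and the highest final level, and 09I1 the highest basal and the lowest final level. The means were 12.14 ± 0.22 and 11.74 ± 0.80 (SD, n = 5), and the mean change was -0.41 (SE 0.33, limma adjusted p = 0.977), or -0.049 without 09I1. For Col4a2 the basal levels were 11.61, 11.39, 11.50, 10.86 and 11.05 and the final levels 11.17, 10.53, 11.23, 11.56 and 10.47, with a mean change of -0.29 (SE 0.22, limma adjusted p = 0.977). The 2 genes, whose starts share the printed 76 bases, went the same way in 4 of 5 tumors. The changes of Col4a1 and Col4a2 differed by 1.40 in 09I1 and by as little as 0.015 in another tumor. In 09I1, whose final array had unlike quality measures, the second Col4a1 probe set changed by -1.17, against -1.84 for the brightest. Col4a2 changed by -0.45 there.

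Col4a5 and Col4a6, which encode the chains of a second basement membrane network, went the same way as each other in 5 of 5 tumors, and so did Col4a5 and Col4a1. Their mean changes were -0.22 and -0.17. Col4a4, known mainly from the kidney, was near the low end of the array (means 4.03 and 4.29). Over the 5 tested genes the median change was -0.22, and -0.068 without 09I1, -0.12 without 11D2 and -0.41 without 29I1; by tumor it was -0.55, -0.61, 0.073, 0.53 and -0.56. In 11D2, 5 of 5 were lower in the final sample while 6 of 10 fibrillar genes were higher, and in 29I1, 4 of 5 were higher while 9 of 10 fibrillar genes were lower. Col1a1 and Col4a1 thus shared their sign in 3 of 5 tumors, and in 29I1 their changes were 3.29 units apart.

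Col17a1, a transmembrane collagen of the hemidesmosome that ties basal epithelial cells to the basement membrane, had the sign of Col4a1 in 5 of 5 tumors. Its basal levels were 10.18, 10.11, 9.69, 8.82 and 10.11 and its final levels 9.27, 9.20, 9.997, 10.23 and 9.31. As with Col4a1, 29I1 had the lowest basal and the highest final level; the mean change was -0.18 (SE 0.36, limma adjusted p = 0.977). Markers of myofibroblasts and smooth muscle, many of which myoepithelial cells also express, had median changes of -0.69, -0.27, 0.57, 1.30 and -1.06, with 7 of 7 tested higher in 29I1 and 6 of 7 lower in 09I1 and in 43D1. Their summed level ran from 12.81 to 15.04 in the basal and from 13.02 to 14.08 in the final samples, and their part in the result was not tested.

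**Figure D4:**
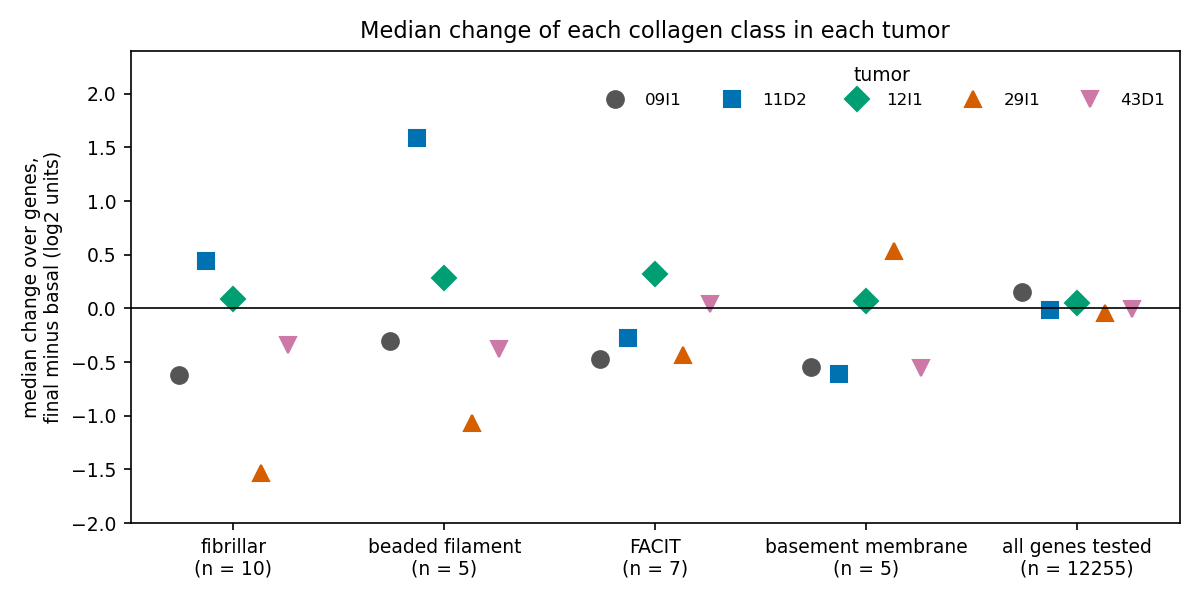
Median change over the genes of a class, final minus basal in log2 units (y axis), in each tumor (symbols), for the 4 largest classes and all genes tested (x axis, with the number of genes). The all-gene medians stay between -0.038 and 0.15, while the fibrillar medians run from -1.53 (29I1) to 0.44 (11D2) and the basement membrane medians from -0.61 (11D2) to 0.53 (29I1).

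Type VI collagen is a hetero-trimer assembled from the products of Col6a1, Col6a2 and a longer chain such as that of Col6a3. Col6a1 had basal levels of 10.63, 10.17, 10.99, 11.31 and 10.64 and final levels of 10.33, 11.75, 11.61, 9.93 and 10.25, a mean change of 0.027 (SE 0.39, limma adjusted p = 0.997). The mean near 0 is made of a change of 1.59 in 11D2 and one of -1.38 in 29I1. Col6a2 had basal levels of 9.95, 9.46, 10.70, 10.54 and 9.81 and final levels of 9.65, 10.97, 10.98, 9.20 and 9.23, a mean change of -0.087 (SE 0.37, limma adjusted p = 0.982). Col6a1 and Col6a2, each the other's usual partner, went the same way in 5 of 5 tumors, with changes at most 0.34 apart. This held for the brightest probe set of Col6a2. Its second one, dimmer at a mean of 5.93, changed by 0.30, 0.84, -0.0042, -0.43 and 0.37. That probe set had the opposite sign to Col6a1 in 09I1, 12I1 and 43D1. Col6a1 also had the sign of Col1a1 in 5 of 5 tumors.

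Col6a3 had basal levels of 10.48, 8.56, 9.94, 9.81 and 9.58 and final levels of 9.25, 10.24, 10.17, 9.89 and 8.68, a mean change of -0.027 (SE 0.40, limma adjusted p = 0.997). It departed from Col6a1 in 29I1, where its change was 0.083 and that of Col6a1 was -1.38. A dimmer second probe set of Col6a3 changed by -0.69 in 29I1. The opposite sign there was thus seen with the brightest probe set alone. Col6a5, an alternative long chain, stood at 5.04, 5.04, 4.62, 7.16 and 5.30 in the basal samples and at 6.07, 8.04, 6.23, 6.10 and 7.14 in the final ones. It was higher in 4 of 5 tumors, by 1.03 to 3.01 units, and lower by 1.06 in 29I1, whose basal sample was the highest of that group. The mean change was 1.29 (SE 0.52, limma adjusted p = 0.977). Col6a6, another long chain, had basal levels of 6.27, 6.66, 6.23, 7.46 and 7.05 and final levels of 7.16, 6.49, 6.44, 7.90 and 7.21, and a mean change of 0.31 (SE 0.19, limma adjusted p = 0.977).

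Over the 5 type VI genes the median change was 0.027 and had no stable sign: it was 0.16 without 09I1, -0.36 without 11D2, -0.092 without 12I1, 0.27 without 29I1, 0.19 without 43D1 and 0.53 with array weights, which give less weight to arrays that fit worse; by tumor it was -0.30, 1.59, 0.28, -1.06 and -0.38. In 11D2, where Col6a1, Col6a2 and Col6a3 were 1.50 to 1.68 units higher, markers of skeletal muscle (12 of 13 tested) and fat (10 of 10 tested) were also higher, with median changes of 4.24 and 1.62. The muscle creatine kinase gene Ckm was 9.47 in the final sample of 11D2 and 3.84 to 4.24 on the other arrays, and Tnnc2 was 10.19 there and 3.45 to 4.31 elsewhere. The summed skeletal muscle level was 10.7 to 12.0 in the basal samples and 10.9 to 13.7 in the final ones; on most arrays it was carried by Myh1, whose probe set read 10.33 to 11.84 on all arrays; the change of Myh1 in 11D2 was -0.32. Acta1 was also bright elsewhere, at 11.02 in the basal sample of 43D1. The summed fat-cell level was 10.01 to 11.75 in the basal and 9.99 to 12.08 in the final samples. The part of those tissues in the result was not tested.

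Of 9 measured FACIT genes, 7 were tested, and their median change was -0.18, with -0.10 without 09I1, -0.045 without 11D2 and -0.30 without 12I1. Col9a3, a chain of the cartilage type IX collagen, had basal levels of 8.90, 9.95, 8.51, 8.69 and 8.13 and final levels of 8.69, 9.30, 8.86, 7.50 and 6.85. It was lower in 4 of 5 tumors, with a mean change of -0.60 (SE 0.26, limma adjusted p = 0.977). Its partner chain Col9a2 shared its sign in 2 of 5 tumors; in 29I1 the change was 0.63 for Col9a2 and -1.19 for Col9a3. Col16a1 had basal levels of 8.74, 9.21, 8.71, 9.00 and 7.61 and final levels of 8.26, 8.93, 9.04, 8.50 and 7.65, so tumor 43D1 was the lowest at both times; the mean change was -0.18 (SE 0.17, limma adjusted p = 0.977). Col12a1, which coats type I fibers, ranged from -0.91 in 09I1 to 1.35 in 43D1, and Col14a1 from -0.88 in 09I1 to 0.33 in 29I1.

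The network collagens Col8a1 and Col8a2, chains of type VIII collagen known from vessels and from the membrane beneath the corneal endothelium, had their largest changes in 43D1. Col8a1 had basal levels of 6.36, 6.85, 9.74, 8.75 and 7.82 and final levels of 6.33, 8.48, 7.9998, 7.88 and 10.11. Its 5 changes, -0.033, 1.63, -1.74, -0.87 and 2.29, had the largest SD of any tested collagen (1.69), and the mean change was 0.26 (SE 0.58, limma adjusted p = 0.977). Col8a2 had basal levels of 7.998, 8.98, 8.47, 8.91 and 7.11 and final levels of 7.36, 8.54, 8.53, 8.76 and 9.12. Its change was 2.02 in 43D1 and lay between -0.63 and 0.061 elsewhere, with a mean of 0.17 (SE 0.38, limma adjusted p = 0.977).

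Col7a1 encodes the anchoring fibril that fastens the basement membrane to the stroma. Its basal levels were 8.45, 8.51, 8.04, 8.09 and 8.01 and its final levels 8.65, 7.96, 8.83, 8.05 and 6.69, with the lowest value in the final sample of 43D1 and a mean change of -0.19 (SE 0.30, limma adjusted p = 0.977). Col15a1, a multiplexin at the edge of basement membranes, had basal levels of 9.49, 8.84, 9.92, 9.59 and 9.17 and final levels of 9.09, 9.58, 9.64, 8.40 and 8.67; it was higher in 11D2 alone, with a mean change of -0.33 (SE 0.26, limma adjusted p = 0.977). Col18a1, the precursor of endostatin, had changes of -1.16 in 11D2, -1.14 in 12I1 and 0.74 in 43D1.

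Col13a1, a transmembrane collagen of cell junctions, had basal levels of 4.35, 5.03, 4.60, 5.39 and 5.75 and final levels of 6.57, 6.18, 5.43, 5.15 and 5.75. Its mean change of 0.79 (SE 0.35, limma adjusted p = 0.977) was 0.43 without 09I1, the tumor with the largest change (2.22). Col26a1, which is placed in none of these classes, had basal levels of 5.40, 5.60, 5.03, 5.05 and 5.33 and final levels of 5.36, 5.54, 5.90, 4.57 and 4.90. Its mean change was -0.028 (SE 0.21, limma adjusted p = 0.992), with 12I1 the only tumor that was higher.

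Changes past 1 log2 unit were counted tumor by tumor, which has no replicate and no test. By sign alone, 10, 17, 23, 12 and 14 of the 36 collagen genes were higher in the final sample of the 5 tumors, against 58.6%, 47.1%, 56.9%, 45.7% and 48.9% of all genes. In 29I1, 12 of 36 collagen genes were lower by more than 1 unit (33.3%, against 5.83% of all genes) and 1, Col17a1, was higher (1.60% of all genes); the 12 include Col1a1, Col1a2, Col3a1, Col5a1, Col6a1, Col6a2 and Col15a1. In 11D2, 7 were higher (19.4%, against 3.48%) and 4 lower (11.1%, against 1.19%), the latter being Col9a1, Col9a2, Col11a1 and Col18a1. In 43D1, 4 were higher (11.1%, against 3.75%) and 5 lower (13.9%, against 2.93%). Tumor 12I1 had 2 in each direction (5.56%, against 1.96% higher and 2.23% lower). In 09I1, whose final array stood apart, 3 were higher and 5 lower (8.33% and 13.9%), beside 12.2% and 8.50% of all genes. The gap between probe sets of the same collagen gene was also widest in 09I1, with a median of 0.44 over 16 pairs of probe sets against 0.16 to 0.25 in the other tumors.

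The spread within each group was compared without a test. The SD was larger over the final than over the basal samples for 9 of 10 fibrillar genes, with a median SD of 0.40 in the basal and 0.92 in the final samples; without 09I1 it was again 9 of 10 (0.42 and 0.87). For FACIT genes it was 2 of 7 with and without 09I1. Over all 36 tested collagens it was 22 (61.1%), near the 60.9% of all genes, and without 09I1 it was again 61.1% while all genes came to 35.9%.

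**Figure D5:**
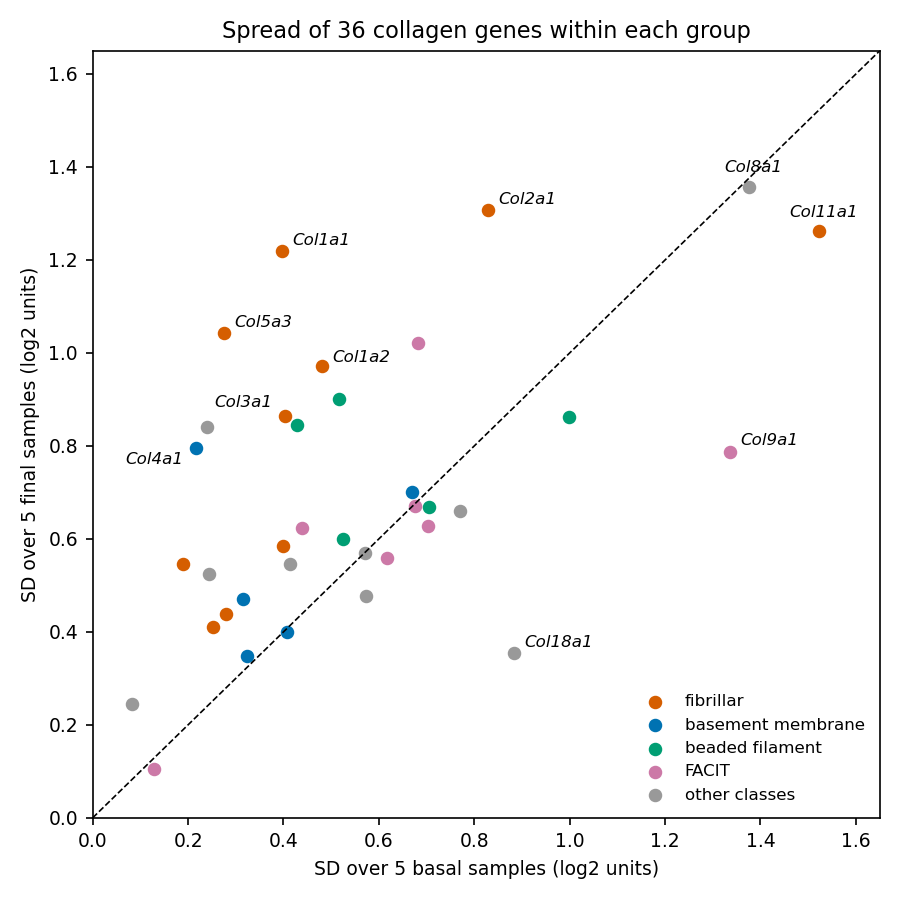
SD over the 5 final samples (y axis) against SD over the 5 basal samples (x axis), both in log2 units, for the 36 tested collagen genes, colored by class; the dashed line marks equal SDs. Fibrillar genes lie above the line except 1 of 10, and Col1a1 is at 0.40 and 1.22.

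Whether the tumors differed from each other across both samples was tested with limma's moderated F test in the same fit. After adjustment 0 of 36 collagen genes passed 0.05, as did 0% of all genes. Without adjustment, 8 of 36 collagen genes had an F test p under 0.05, beside 4.68% of all genes: the fibrillar genes Col2a1, Col5a2 and Col11a1, the type VI gene Col6a6, and the FACIT genes Col9a1, Col9a3, Col14a1 and Col16a1. For Col2a1, whose tumors 29I1 and 43D1 were the lowest at both times, limma's F test gave an adjusted p = 0.325, the lowest of these 8. Col1a1, Col1a2 and Col3a1 were not among them; for Col3a1, 29I1 was the highest of the basal and the lowest of the final samples.

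The genes that make, bind and break down collagen were read from lists of other symbols, and limma's adjusted test called 0 genes in each list. Of 12 tested genes for hydroxylation and glycosylation of the chains, the median change was -0.19. Among them 1 had an unadjusted limma p under 0.05, beside 2.88% of all genes, a share that a list this short cannot be set against. This was Plod1, a lysyl hydroxylase, with a mean change of -0.53 (SE 0.19, limma adjusted p = 0.977). Its largest decrease, -1.15, was in 09I1, whose final array had unlike quality measures. P4hb, a subunit of prolyl 4-hydroxylase, was lower in 5 of 5 tumors (12.14 ± 0.15 and 11.82 ± 0.34, SD, n = 5). Its groups did not overlap, a property of 0.840% of all genes, but nearly touched. The lowest basal value was 12.010 (43D1) and the highest final value 12.005 (12I1). Its change ran from -0.84 in 09I1 to -0.0365 in 43D1. P4ha1, the catalytic subunit, had a mean change of -0.34. Of 12 chaperone and export genes the median change was 0.031. Serpinh1, the collagen chaperone HSP47, was the 1 gene of these with an unadjusted limma p under 0.05, beside the same 2.88% of all genes. Its mean change was -0.52 (SE 0.20, limma adjusted p = 0.977), and its largest decrease, -1.34, was also in 09I1. Fkbp10 and Creb3l2 had mean changes of -0.16 and 0.13. In procollagen processing 2 genes were tested, Bmp1 (-0.28) and Pcolce (-0.18).

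The crosslinking enzymes, like the fibrillar chains, had their highest median change in 11D2 and their lowest in 29I1: over the 5 tested it was -0.19, 1.26, -0.25, -1.13 and 0.19, and 5 of 5 were lower in 29I1. Mean changes were -0.44 for Tgm2, 0.33 for Loxl1 and -0.12 for Loxl2, and the list median was -0.083. For 6 tested collagen receptors the median was 0.11, with mean changes of 0.38 for Itga1, -0.20 for Itgb1 and -0.22 for Ddr1. For 7 tested collagenases and gelatinases it was 0.22, with 0.38 for Ctsk, 0.22 for Mmp15 and 0.26 for Mmp2. Of the 7, 6 were higher in 11D2, 6 lower in 29I1 and 5 higher in 12I1, beside 6, 9 and 6 of the 10 fibrillar genes in those directions. The remaining genes in 12I1, Mmp13 and Mmp9, had the largest changes of the list there, -2.56 and -2.34. Mmp13 was also the gene that was lower in 11D2 (-0.24), and it changed by 4.91 in 43D1.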

How the data were processed

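RNA of 10 tumor samples (5 basal, 5 final) was hybridised to Affymetrix rat genome arrays. The authors deposited log2 values made with RMA, per the labels' design text, which also names a filter near background and a paired Student test; the deposited table still holds 31099 probe sets, dim ones and 57 controls included. Probe sets were named through the platform annotation: 20826 had 1 symbol, 436 several and 9780 none. Controls and the 25% of probe sets with the lowest mean were left out, and 23281 were fitted in limma 3.58.1 (R 4.3.3) with tumor as a block, an intensity trend and Benjamini-Hochberg adjustment over all of them, 4 residual degrees of freedom remaining; the fit was tested on simulated data. A gene was represented by its brightest probe set. Depth has no meaning for arrays; the number of tumors limits the precision. Alternatives covered the block, filter, scaling, array weights, trend, probe sets, the methods' t-test and each tumor left out. Figures used matplotlib 3.10.9.

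The members and gene lists were chosen with earlier results of these data known. Values in every array are given for Col1a1, Col1a2, Col3a1, Col4a1, Col4a2 and Col6a1 to Col6a3, for the 2 members of each class with the smallest p (1 where a class had 1 or 2 tested), the 5 with the smallest p and the 3 with the largest SD of the change; of each list of collagen-related enzymes and receptors the 3 genes with the smallest p are named. Other genes were named after their values were seen. Same-code samples come from 1 tumor, so they were paired; their deviations from the group means correlated at 0.072, 0.095, 0.014, -0.15 and 0.22. No 2 arrays held identical values.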

Additional observations from a re-analysis of the deposited data

Results flagged for a closer look

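In 80 sets of 5 values, 5 sets had 1 value far from the other 4, where chance flags about 1 in 20. The sets were the basal or final levels of each tested collagen gene, the array measures and class median changes by tumor. Those classes were fibrillar, basement membrane, beaded filament and FACIT, and none of their medians was flagged. Col27a1, a fibrillar chain, was 6.03 in the final sample of 09I1 and 4.67 to 4.97 in the other final samples. Col6a5 was 7.16 in the basal sample of 29I1 and 4.62 to 5.30 in the other basal samples. Col22a1 was 4.97 in the final sample of 43D1 and 4.71 to 4.77 in the others. Among the final arrays, that of 09I1 had a median correlation with the other arrays of 0.938 against 0.977 to 0.984, and a beta-actin 3′ minus 5′ difference of 2.61 against 0.72 to 0.83.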

How the results depend on the processing

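Under every alternative run, 0 collagen genes were called between final and basal; the test between tumors, run with the tumor as a block, called 0 under each alternative that allows it. The count at an unadjusted p under 0.05, 2 as reported, was 1 with cyclic loess, 1 with the methods' paired t-test, 1 with probe sets of a gene averaged and 7 with array weights (9.01% of all genes there), and 2 to 4 when each tumor was left out, with 4 without 29I1. Pairing mattered little to the count: with no replicate block and with tumor as a random replicate block (correlation 0.0017) it was 2 each time, Col13a1 and Col6a5 in place of Col2a1 and Col6a5. Class medians moved by less than their spread over tumors, yet changed sign for the fibrillar class (0.023 with array weights) and for type VI (-0.36 without 11D2, -0.092 without 12I1). With array weights the mean change turned to 0.074 for Col1a2, 0.11 for Col3a1, 0.41 for Col6a2 and 0.61 for Col6a3; with arrays centred on their median to 0.0026 for Col6a3 and 0.0018 for Col26a1; and with averaged probe sets to 0.063 for Col6a2. When each tumor was left out, the mean change ran from -0.66 to 0.091 for Col3a1, -0.36 to 0.38 for Col6a1, -0.485 to 0.23 for Col6a2, -0.45 to 0.27 for Col6a3, -0.29 to 0.38 for Col8a2, -0.43 to 0.098 for Col7a1, -0.58 to 0.00455 for Col17a1, -0.25 to 0.084 for Col26a1 and -0.25 to 0.755 for Col8a1. The cause was not tested. The change of Col2a1 was -0.93 to -0.66 with each tumor left out and -0.25 with averaged probe sets, where its unadjusted p was above 0.05. The spread without 09I1 was added after the data had been seen. With 5 tumors, a mean change has to be large beside the spread of that change over tumors to pass. Dim members such as Col4a4 lie near the array's lower quartile.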
